A study of Homo sapiens with 4 samples.

Results

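The genes described here are the collagens and 7 small leucine-rich proteoglycans of the extracellular matrix, read on 4 arrays of cells labelled HepG2, a human line derived from a liver tumour. A gene was a member when its symbol in the platform annotation was COL, digits, A, digits, or was LUM, DCN, BGN, FMOD, OGN, OMD or PRELP. This gave 50 genes of 19090, made up of 43 collagens and 7 proteoglycans, with 65 probes of 28264. The rule used symbols and no measured values, though it was set with earlier results of these data known. The cells were transfected with a mimic of the microRNA miR-214, with siPVT1-1 or siPVT1-2, siRNA duplexes named for the noncoding transcript PVT1, or with NC, a negative control duplex without homology to human sequence. Each group was 1 array of Cy5-labelled RNA, so no difference below has a replicate check and none carries a p-value. All 4 groups share the labelled cell line, the culture medium with serum and the transfection reagent. No label gives the time after transfection. The PVT1 level was not analysed here.

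Collagens are trimeric proteins whose chains wind into a triple helix. The fibril-forming types build the fibres of connective tissue, the network-forming types include the type IV sheet of basement membranes, and the fibril-associated, beaded-filament, anchoring and transmembrane types connect fibres and cells. The small leucine-rich proteoglycans, with a horseshoe of leucine-rich repeats, bind collagen fibrils and set their width and spacing. In the liver, fibrillar collagens, decorin and lumican are known mainly as products of stellate cells and fibroblasts, and not of hepatocytes.

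miR-214 has a mature strand from each arm of its hairpin, and the labels leave the strand of the mimic unstated, so both are shown as RefSeq gives them on GRCh38.p14, 5′ to 3′, with the seed, bases 2 to 8, in capitals. They lie on the minus strand at chr1:172138816-172138837 for the 3p strand and chr1:172138857-172138878 for the 5p strand.
hsa-miR-214-3p: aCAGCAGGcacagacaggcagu
hsa-miR-214-5p: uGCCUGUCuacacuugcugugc
The seeds of the 2 strands differ, so a mimic of one would not share its seed with the other.

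Of the collagens and proteoglycans that stood at least 2-fold apart between the mimic and NC arrays, 4 had a promoter sequence in the table used, and they are shown here because the results below turn on them. Of the 50 members, 35 had a promoter in that RefSeq table of GRCh38.p14. COL4A1 and COL4A2 encode the chains of the common type IV collagen and start 126 bases apart on opposite strands, so those bases lie upstream of both; they are given on the COL4A1 strand (minus, chr13:110307158-110307283). The other 3 are the 250 bases before the gene's start: COL6A2 (plus, chr21:46097862-46098111), COL13A1 (plus, chr10:69801656-69801905) and COL25A1 (minus, chr4:109302659-109302908). Capitals mark 3 motifs, each searched on both strands: TATAAA for the TATA box, CCAAT for the CCAAT box and GGGCGG for the GC box. The marked motifs do not overlap.
COL4A1: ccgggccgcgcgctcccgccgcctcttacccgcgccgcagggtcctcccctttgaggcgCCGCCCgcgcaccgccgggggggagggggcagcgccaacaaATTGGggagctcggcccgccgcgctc
COL6A2: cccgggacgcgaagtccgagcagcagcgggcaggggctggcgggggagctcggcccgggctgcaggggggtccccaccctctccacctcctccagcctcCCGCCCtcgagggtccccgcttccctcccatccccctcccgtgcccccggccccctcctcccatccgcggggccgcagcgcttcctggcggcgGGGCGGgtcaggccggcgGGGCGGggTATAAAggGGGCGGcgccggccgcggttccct
COL13A1: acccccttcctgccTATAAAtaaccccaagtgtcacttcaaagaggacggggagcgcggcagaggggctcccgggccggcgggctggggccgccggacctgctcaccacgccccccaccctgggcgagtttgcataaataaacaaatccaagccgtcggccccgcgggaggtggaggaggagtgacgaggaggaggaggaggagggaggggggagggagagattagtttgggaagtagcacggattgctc
COL25A1: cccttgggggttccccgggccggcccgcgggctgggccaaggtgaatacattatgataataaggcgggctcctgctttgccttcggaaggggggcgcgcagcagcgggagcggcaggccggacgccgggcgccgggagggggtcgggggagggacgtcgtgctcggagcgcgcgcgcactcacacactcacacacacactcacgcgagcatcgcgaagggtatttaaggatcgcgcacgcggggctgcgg
The COL4A1 stretch held 1 CCAAT box and 1 GC box. Over the same length, 21.86% of 27305 promoters held at least 1 CCAAT box and 34.63% at least 1 GC box. The COL6A2 stretch held 1 TATA box and 4 GC boxes. Over 250 bases, 11.13% of promoters held at least 1 TATA box and 42.31% at least 1 GC box, and the share with 4 was not counted. G and C made up 80.16% of the COL4A1 stretch and 79.6% of the COL6A2 stretch, beside promoter medians of 59.52% and 58.0%. COL13A1 held 1 TATA box motif, far upstream of its start, and COL25A1 held none of the 3 motifs. These matches are a description of letters and not of factor binding.

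Levels are given as quantile-normalized intensities on the log2 scale with a floor of 64, which is 6 in log2, and a gene is read by its brightest probe. The median of all probes was 9.72, and it served as the level filter. Signal also depends on the probe, so a percentile here ranks spot brightness and does not measure transcript amount. The medians of the deposited intensities over all probes were 784.1 to 926.9 on the 4 arrays. Of the 50 members, 19 lay above the filter, or 38.0%, where 55.88% of all named genes did. Above percentile 90 of all probes stood 5 members, or 10.0%, beside 12.07% of all named genes. At the other end, 6 members lay at the floor on all 4 arrays with every probe they have.

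The small leucine-rich proteoglycans split into bright and dim members. Lumican (LUM), which binds fibrillar collagen and is abundant in cornea and connective tissue, gave the brightest signal of the 50 members. Its brighter probe read 16.57 with the mimic, 16.52 with siPVT1-1, 16.73 with siPVT1-2 and 16.32 with NC. Its other probe read 16.29, 15.68 and 16.17 on the mimic, siPVT1-1 and siPVT1-2 arrays and 15.75 on the NC array. Both probes lay between percentiles 96.55 and 98.51 on every array.

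Decorin (DCN), which coats collagen fibrils and binds TGF-beta, also gave a high signal. Its brighter probe read 14.23 with the mimic, 14.54 with siPVT1-1, 14.42 with siPVT1-2 and 14.52 with NC, between percentiles 91.54 and 92.87. Its second probe was dimmer but still above the filter, at 11.74, 11.16 and 11.57 on the mimic, siPVT1-1 and siPVT1-2 arrays and 11.19 on the NC array. The mimic and siPVT1-2 arrays were thus the high ones by the second probe and the low ones by the first. Biglycan (BGN), the close relative of decorin, read 12.19, 12.46 and 12.15 on the mimic, siPVT1-1 and siPVT1-2 arrays and 12.48 on the NC array, so the 4 arrays lay close together.

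The remaining proteoglycans were near or under the filter. Fibromodulin (FMOD), which guides fibril assembly, lay just above it at 10.34, 10.61 and 10.49 with the mimic, siPVT1-1 and siPVT1-2 and 10.48 with NC, while its second probe stood at percentile 15.59. Osteoglycin (OGN) lay under it at 8.86, 9.10 and 9.18 on the 3 treated arrays and 9.15 on the NC array. PRELP, which anchors matrix to basement membrane, read 8.05, 8.04 and 7.95 on the treated arrays and 7.71 on the NC array. Osteomodulin (OMD), a bone matrix protein, was at the floor on 3 arrays and at 6.14 with the mimic.

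Lumican has 1 bright and 1 dim chromosome neighbour. KERA, LUM and DCN follow one another in the RefSeq gene order, and KERA, the corneal keratocan gene, stood at percentile 15.27 beside 98.24 for LUM and 92.50 for DCN. FMOD and PRELP are neighbours too, at percentiles 59.24 and 28.27. OGN and OMD are likewise neighbours, at percentiles 41.98 and 8.19.

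Among fibril-forming collagens, 3 of 11 lay above the filter. COL5A1 encodes the chain of type V collagen that starts fibrils in many tissues, and both of its probes were bright. They read 15.05 and 14.10 with the mimic, 15.21 and 14.76 with siPVT1-1, 15.28 and 14.56 with siPVT1-2, and 14.67 and 14.25 with NC. COL1A1, the main chain of type I collagen, read 12.14, 12.64 and 12.28 on the mimic, siPVT1-1 and siPVT1-2 arrays and 12.52 on the NC array, which was within the range of the treated arrays. COL2A1, the cartilage collagen, read 9.66, 9.59 and 10.21 on the treated arrays and 10.67 on the NC array, so NC was the high array.

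The main partner chains of COL1A1 and COL5A1 gave almost no signal. COL1A2 encodes the partner chain of COL1A1 in type I collagen, and its brighter probe read 6.40, 6.89 and 7.25 on the mimic, siPVT1-1 and siPVT1-2 arrays and 6.78 on the NC array, with the other probe at the floor on all arrays. COL5A2, the partner of COL5A1 in most type V collagen, was at the floor on all 4 arrays, at percentiles 7.21 to 9.31. COL3A1, the type III chain of soft tissues, was at the floor too, at percentiles 1.47 to 4.11. The remaining fibril-forming genes lay under the filter: COL27A1 at percentile 41.12, COL5A3 at 37.18, COL11A2 at 36.39, COL24A1 at 23.88 and COL11A1 at 19.08.

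Type IV chains of basement membrane gave signal from both partners. COL4A2 read 13.70, 14.29 and 13.96 on the mimic, siPVT1-1 and siPVT1-2 arrays and 13.92 on the NC array. COL4A1 read 13.30, 12.99 and 13.00 on the treated arrays and 12.11 on the NC array, so all 3 treated arrays lay above NC. COL4A5, mutated in Alport syndrome, read 11.01, 10.79 and 10.79 on the treated arrays and 10.91 on the NC array, and COL4A4 lay close to the filter at 9.88, 9.79 and 10.14 on the treated arrays and 9.81 on the NC array. COL4A3 and COL4A6 were dim, at percentiles 23.14 and 26.23. Of the other network-forming collagens, COL8A2 stood at percentile 45.44, the growth plate collagen COL10A1 at 27.41 and COL8A1 at 14.02.

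In the beaded-filament and anchoring group, COL7A1 and COL6A2 lay above the filter. COL7A1, which forms the fibrils that anchor the epidermis to the dermis, read 13.86, 13.83 and 13.56 on the mimic, siPVT1-1 and siPVT1-2 arrays and 13.35 on the NC array. Type VI collagen is built from COL6A1, COL6A2 and a further chain, most often COL6A3. By its brighter probe COL6A2 read 11.82 with the mimic, 10.46 with siPVT1-1, 10.88 with siPVT1-2 and 10.53 with NC, so the mimic array stood above the other 3. COL6A1 lay at the filter, with 9.65, 9.83 and 9.41 on the treated arrays and 9.56 on the NC array. Both COL6A3 probes were at the floor on the treated arrays, and the brighter one read 6.12 with NC. COL28A1 stood at percentile 40.15 and COL6A6 at 31.76, and COL6A5 was at the floor on all arrays.

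Of the 10 fibril-associated collagens, 4 lay above the filter. COL12A1, which decorates type I fibrils, was the brightest at 14.52, 14.51 and 14.57 on the mimic, siPVT1-1 and siPVT1-2 arrays and 14.86 on the NC array, and each treated array lay under NC. COL14A1 read 11.37, 11.58 and 11.42 on the treated arrays and 11.70 on the NC array by its brighter probe, while its second probe stood at percentile 26.03. COL9A3, a chain of the cartilage type IX collagen, read 10.58, 11.07 and 11.06 on the treated arrays and 10.79 on the NC array. COL16A1 read 10.23, 9.49 and 10.18 on the treated arrays and 10.44 on the NC array, with siPVT1-1 the low one. The partner chains of COL9A3 were dim, with COL9A2 at percentile 37.88 and COL9A1 at the floor on all arrays. COL20A1 stood at percentile 35.96 and COL22A1 at 10.95, and COL19A1 and COL21A1 were at the floor.

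The transmembrane collagens sat in the middle of the signal range. COL13A1, found at cell adhesion sites and neuromuscular junctions, read 8.86 with the mimic, 10.96 with siPVT1-1, 10.75 with siPVT1-2 and 10.17 with NC. The mimic array alone lay under the filter. COL25A1, a membrane collagen of neurons, read 9.13 with the mimic, 10.30 with siPVT1-1, 10.13 with siPVT1-2 and 10.25 with NC by its brightest probe, so the mimic array was again the low one. COL23A1 lay at the filter, between percentiles 46.17 and 51.14. COL17A1, the hemidesmosome collagen, was not analysed here.

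The multiplexins, whose ends release antiangiogenic fragments, were both under the filter. COL15A1 read 9.10, 8.48 and 8.61 on the mimic, siPVT1-1 and siPVT1-2 arrays and 9.60 on the NC array, so it was under the filter on each array, it is named after its values were seen, and its differences are of dim spots. COL18A1, the source of endostatin and a product of hepatocytes, stood at percentile 18.30. COL26A1, which is in none of these groups, stood at percentile 13.83.

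**Figure D1:**
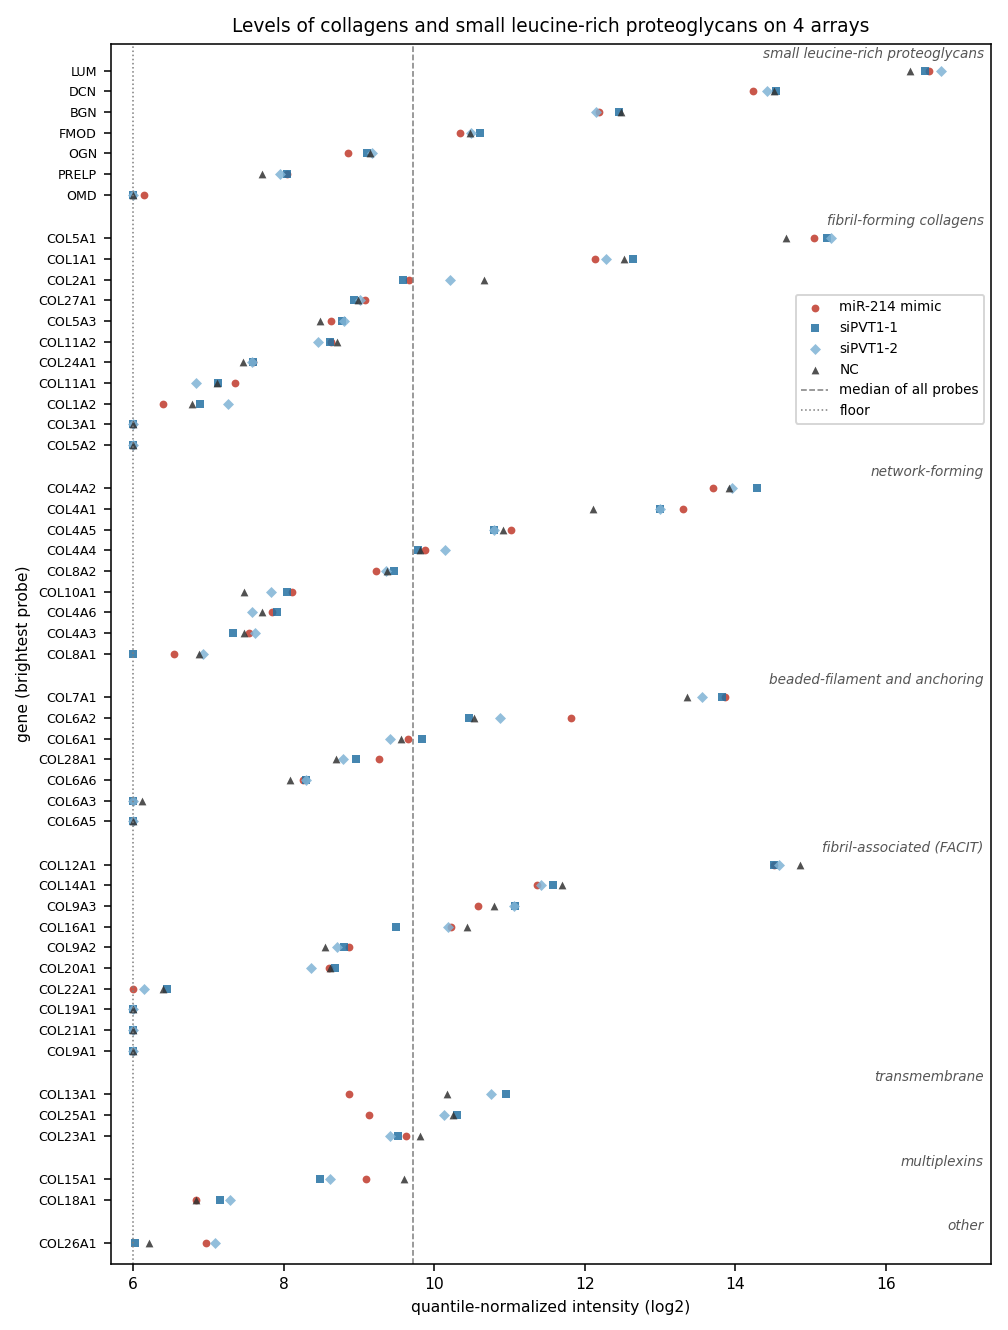
Quantile-normalized log2 intensity of the brightest probe of each of the 50 genes on the mimic, siPVT1-1, siPVT1-2 and NC arrays, 1 point per array, grouped by role. LUM, COL5A1, DCN, COL12A1 and COL4A2 lie far right of the median of all probes (9.72), while COL3A1, COL5A2, COL6A5, COL9A1, COL19A1 and COL21A1 sit at the floor.

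Further probes of a gene were a check on its level. Of the 50 members, 36 had 1 probe, 13 had 2 and 1 had 3. Among the 8 genes with several probes and a brightest one above the filter, the next probe was also above it for LUM, DCN and COL5A1, or 37.5%, beside 54.75% of 4044 such genes on the array. For COL6A2 the gap was large, with the second probe at 8.10, 8.06 and 7.76 on the mimic, siPVT1-1 and siPVT1-2 arrays and 7.91 on the NC array. For COL25A1 the other 2 probes stood at percentiles 25.52 and 19.22. COL4A4, COL14A1 and FMOD likewise rested on 1 bright probe. The bright levels of COL12A1, COL4A2, COL7A1, COL4A1, COL1A1 and BGN rest on a single probe each and have no such check. Floor readings of COL3A1, COL5A2, COL6A5, COL9A1, COL19A1 and COL21A1 rest on 1 probe each too.

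**Figure D2:**
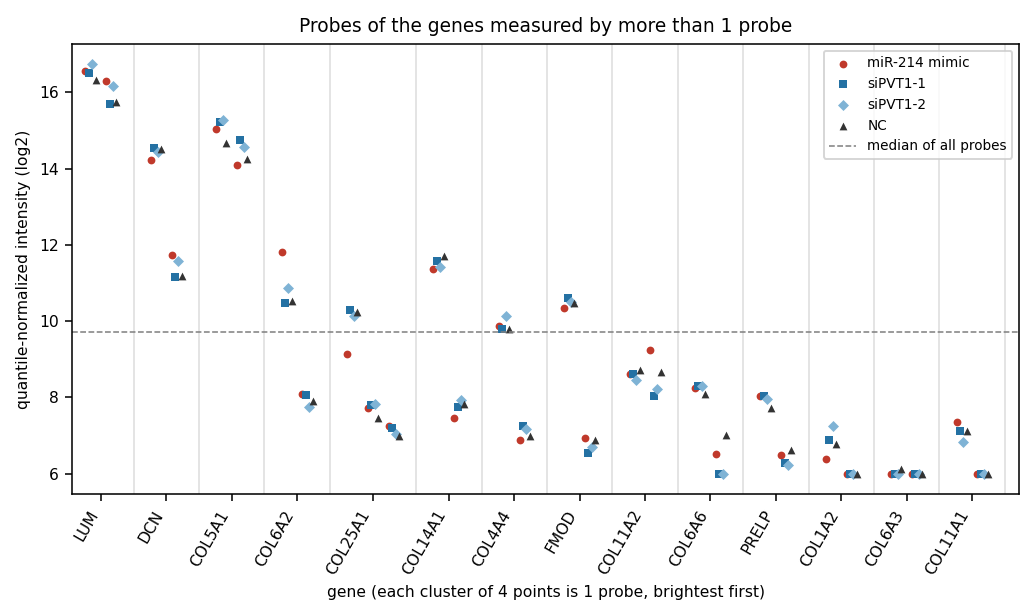
Log2 levels of every probe of the 14 members measured by more than 1 probe; each cluster of 4 points is 1 probe on the mimic, siPVT1-1, siPVT1-2 and NC arrays. Both probes of LUM, DCN and COL5A1 lie above the dashed median of all probes (9.72), while COL6A2 and COL25A1 have 1 probe near or above it and the others below.

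As clues to cell identity, these levels were mixed. Of 16 fibroblast markers, 5 of which are members, 6 lay above the filter. SPARC, a collagen-binding matrix protein, stood at percentile 92.70 and fibrillin-1 (FBN1) at 89.12, with a second FBN1 probe at 36.63. COL1A1 stood at percentile 79.25, TWIST2 at 71.08, TWIST1 at 66.09 and TAGLN at 53.28. POSTN, COL3A1 and COL5A2, with 1 probe each, were at the floor on all arrays. THY1 stood at percentile 22.77, and PDGFRA and PDGFRB stood at 44.35 and 49.81. The summed deposited intensity of the fibroblast list was 47263.5, 50452.6 and 50781.2 on the mimic, siPVT1-1 and siPVT1-2 arrays and 57263.1 on the NC array.

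Among other cell types, the hepatocyte and stellate cell markers were mostly dim, with median percentiles of 27.69 and 19.7. Over all named genes the share above the filter was 55.88%. Of 8 stellate cell markers 2 lay above the filter, RGS5 at percentile 68.70 and CYGB at 55.60. Second probes of RGS5 and CYGB stood at 17.82 and 44.45. LRAT was at the floor and DES stood at percentile 11.91. Of 10 chondrocyte markers, 4 of which are members, 4 lay above it, and the aggrecan gene ACAN stood at percentile 57.89. Of 7 endothelial markers 2 lay above the filter, of which VWF was the brighter at percentile 57.42. Of 12 hepatocyte markers 2 lay above it, APOA1 at percentile 59.03 and SERPINA1 at 50.33, while albumin (ALB) stood at 16.16 and AFP at 32.27. Of 8 epithelial markers 6 lay above it, led by the keratins KRT18 at percentile 99.26, KRT7 at 96.74 and KRT19 at 95.88, with CDH1 at 12.53. Of 6 genes linked to a mesenchymal state 4 lay above it, vimentin (VIM) at percentile 98.33 and CDH2 at 84.67 among them, while fibronectin (FN1) stood at 32.50. Bright lumican, decorin and COL5A1 signals thus stood beside COL3A1, COL5A2 and POSTN signals at the floor, and these lists name no single cell type. Some markers that are not members differed from NC by 2-fold or more, given here as log2 differences with the mimic, siPVT1-1 and siPVT1-2. The keratins KRT8 and KRT19 were higher on each treated array, KRT8 by 2.02, 1.89 and 1.86 and KRT19 by 1.27, 1.13 and 1.64. TAGLN differed by 0.67, 1.32 and 0.91, SNAI2 by 0.79, 0.84 and 1.06, and TWIST2 by -0.55, -1.10 and -1.03. On the NC array KRT8 (8.59), TAGLN (9.25) and SNAI2 (9.15), with 1 probe each, lay under the filter, where ratios are less precise. The summed deposited intensity of the epithelial list was 308933.7, 293564.0 and 346993.2 on the mimic, siPVT1-1 and siPVT1-2 arrays and 199550.9 on the NC array. That of the mesenchymal list was 124083.4, 107698.9 and 123166.7 on the same treated arrays and 87146.4 on the NC array. The fibroblast sum was thus lower, and these sums higher, on every treated array than on the NC array. The sums are not normalized across arrays, and the brightest genes weigh most in them. With the mimic, siPVT1-1 and siPVT1-2, the median log2 differences from NC were -0.21, -0.03 and -0.06 for the 6 fibroblast genes above the filter. They were 0.25, 0.24 and 0.38 for 6 epithelial genes and 0.14, 0.05 and 0.10 for 4 mesenchymal genes. The part of these lists in the differences below was not tested. The label HepG2 is used as given, although most hepatocyte markers lay under the filter. The identity of the cells was not tested. In bulk RNA, fewer cells of a type and less RNA per cell cannot be told apart.

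**Figure D3:**
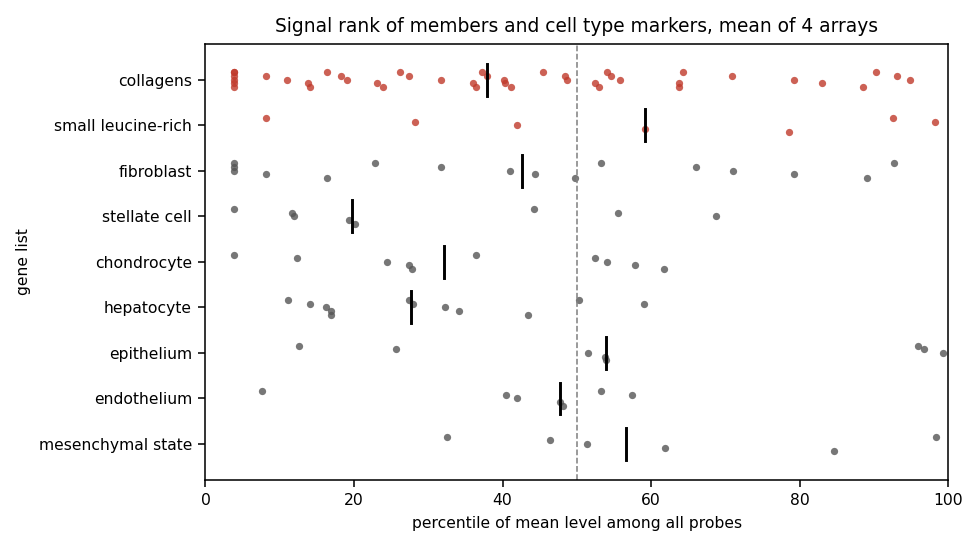
Percentile of the mean level over the 4 arrays among all probes, 1 point per gene, for the collagens, the small leucine-rich proteoglycans and 7 marker lists; the black bar is the list median and the dashed line is percentile 50. The collagens spread from the floor to percentile 94.85, and the hepatocyte list reaches percentile 59.03 at most.

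The first comparison asked which of these genes the miR-214 mimic altered relative to NC. Of the 19 members above the filter, 2 were at least 2-fold higher and 3 at least 2-fold lower on the mimic array. Over all 10666 genes compared, 1.95% were higher and 2.84% lower, or 4.79% in either direction. Most of the members past 2-fold were not bright: 4 of the 5 lay between percentiles 50 and 65, a range set after the values were seen, in which 9 members lie. Of the 2881 genes in it, 2.15% were higher and 4.06% lower, or 6.21% in either direction. The members' median log2 difference was -0.21, beside -0.02 for all genes compared, with 7 members above 0 and 12 below. With 1 array per group and 19 genes, these counts describe these arrays only.

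COL6A2 was 2.45-fold and COL4A1 2.28-fold higher with the mimic, log2 differences of 1.29 and 1.19. Of all genes compared, 0.656% were as far up as COL6A2 and 0.938% as far up as COL4A1. The second COL6A2 probe differed by 0.20, so the difference rests on its brighter probe. The neighbour and partner of each stayed close to NC: COL6A1 differed from NC by 0.09 and COL4A2 by -0.22.

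COL13A1 was 2.47-fold, COL25A1 2.18-fold and COL2A1 2.01-fold lower with the mimic, log2 differences of -1.30, -1.12 and -1.01. The other COL25A1 probes, both dim, differed by 0.27 and 0.24, against the direction of the brightest. COL13A1 has a single probe, so no other probe checks its difference. With the mimic all 3 genes were dimmer than the median probe, at 8.86, 9.13 and 9.66, where ratios are less precise. COL2A1 was past 2-fold by a margin that 2 of 5 other ways of computing the level removed, with a range of -1.12 to -0.96. Median centring (-0.96) and cyclic loess (-0.998) removed it, and the values as deposited (-1.12) kept it. A lower floor and averaged probes could not alter it, because COL2A1 has a single probe that lies above the floor.

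Apart from COL4A1, the members above percentile 75 stayed within 2-fold of NC with the mimic. LUM differed by 0.25 and 0.54 by its probes, COL5A1 by 0.38 and -0.15, and DCN by -0.29 and 0.55. COL7A1 differed by 0.51, COL4A2 by -0.22, BGN by -0.29, COL12A1 by -0.35 and COL1A1 by -0.38. Probes of DCN and of COL5A1 therefore had opposite signs, so the direction of these differences depended on the probe. Spread between arrays or cultures was not measured.

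The next comparisons asked which of these genes siPVT1-1 and siPVT1-2 altered relative to NC; they share the NC array with each other and with the mimic comparison. With siPVT1-1, 0 of 19 members were higher and 1 was lower, beside 1.25% and 1.72% of all genes compared, or 2.96% in either direction. That member was COL2A1, 2.11-fold lower with a log2 difference of -1.08; with siPVT1-2 it differed by -0.46. With siPVT1-2, 0 of 19 members were higher and 0 lower, beside 1.33% and 1.2% of all genes, or 2.53% in either direction. The members' median difference was 0.05 with siPVT1-1 and 0.01 with siPVT1-2, beside 0.01 and -0.01 for all genes.

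COL4A1 came closest to 2-fold on the higher side with both siRNAs, 0.89 with each. It was therefore lowest on the NC array, and the mimic differed from siPVT1-1 and siPVT1-2 by 0.31 and 0.30. COL5A1 differed from NC by 0.55 and 0.61 with siPVT1-1 and siPVT1-2 by its brighter probe and by 0.51 and 0.31 by the other. COL13A1 differed by 0.79 and 0.58. On the lower side, COL16A1 differed by -0.95 with siPVT1-1 and by -0.26 with siPVT1-2. The dim COL15A1 differed by -1.12 and -0.99.

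**Figure D4:**
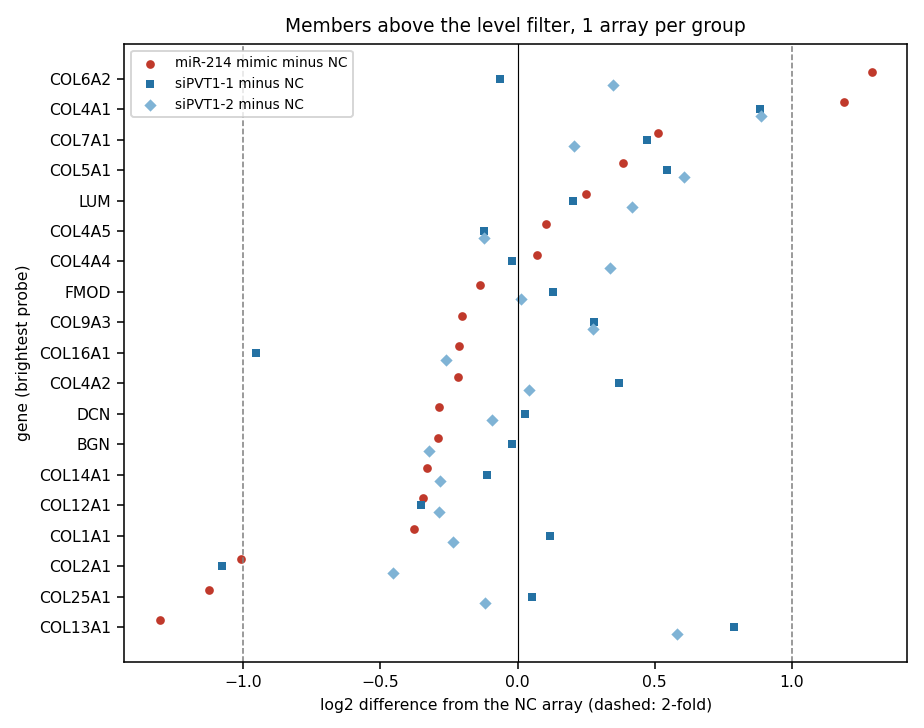
Log2 difference from the NC array of the 19 members above the level filter, for the mimic, siPVT1-1 and siPVT1-2, by brightest probe; dashed lines mark 2-fold and there is 1 array per group. COL6A2 (1.29) and COL4A1 (1.19) are past 2-fold upward with the mimic, COL13A1, COL25A1 and COL2A1 downward, and COL2A1 alone is past it with an siRNA (siPVT1-1, -1.08).

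Setting the arrays against one another without NC separated these genes. Between siPVT1-1 and siPVT1-2, 0 of 19 members were past 2-fold in either direction, beside 0.0938% of all genes higher, 0.403% lower and 0.497% in either direction, and COL16A1 (-0.69) and COL2A1 (-0.62) were the farthest apart. On the mimic array COL13A1, read by a single probe, was 4.26-fold lower than on the siPVT1-1 array and 3.69-fold lower than on the siPVT1-2 array. COL25A1 was 2.26-fold and 2.01-fold lower in the same order by its brightest probe. COL6A2 was 2.56-fold higher with the mimic than with siPVT1-1 and 1.92-fold higher than with siPVT1-2. In all, 1 member was higher and 2 were lower with the mimic than with siPVT1-1, beside 1.39% and 1.63% of all genes, or 3.02% together. Against siPVT1-2, 0 members were higher and 2 lower, beside 0.263% and 1.41%, or 1.67% together. COL4A1 and COL2A1, by contrast, stood within 2-fold between the mimic and each siRNA array, with COL2A1 at 0.07 and -0.55.

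Most genes that fold and hydroxylate collagen were above the filter, while the processing and cross-linking genes ranged down to the floor. Of 19 measured folding and hydroxylation genes 18 lay above the filter, and 0 were past 2-fold against NC on any treated array. Of all genes compared, 4.79%, 2.96% and 2.53% were past it with the mimic, siPVT1-1 and siPVT1-2, so 0 of 18 is near those shares. The collagen chaperone SERPINH1 stood at percentile 97.53 and differed by -0.76, -0.06 and -0.21 with the mimic, siPVT1-1 and siPVT1-2, while its second probe differed by 0.37, -0.06 and 0.53. Of 14 processing and cross-linking genes 8 lay above the filter, near the 55.88% of all named genes. Of all genes compared, 1.95%, 1.25% and 1.33% were higher than NC with the mimic, siPVT1-1 and siPVT1-2. Of the 8 genes, 1 was higher with the mimic, 0 with siPVT1-1 and 1 with siPVT1-2, and none was lower. That gene was LOX, the lysyl oxidase that cross-links collagen and elastin. By its brightest probe LOX read 12.95, 12.15 and 12.54 on the mimic, siPVT1-1 and siPVT1-2 arrays and 11.42 on the NC array, differences of 1.53, 0.73 and 1.12. A second LOX probe gave 1.97, 1.58 and 1.79 and the remaining one 0.08, 0.26 and 0.47, so all 3 were above NC, but 1 of them by little.

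Genes around the collagens in the matrix pathway were mostly within 2-fold, as were most genes. Of all genes compared, 4.79%, 2.96% and 2.53% were past 2-fold against NC with the mimic, siPVT1-1 and siPVT1-2. In lists this short, a count of 0 is near those shares. Of 10 collagen receptors 6 lay above the filter, led by integrin beta-1 (ITGB1) at percentile 98.76, and 0 were past 2-fold against NC. Of 10 collagen breakdown genes 4 lay above it and 0 were past 2-fold against NC; the collagenase gene MMP1 was at the floor on all arrays, and MMP8 read 6.53 with the mimic, the floor with both siRNAs and 7.37 with NC. Of 11 measured genes of the TGF-beta axis, which drives collagen synthesis in fibrosis, 5 lay above the filter and 0 were past 2-fold against NC; the dim CCN2 differed by 0.42, 0.47 and 1.11. Of 10 other small leucine-rich genes 2 lay above the filter and 0 were past 2-fold against NC. OPTC, the opticin gene, read 11.32, 10.87 and 12.06 with the mimic, siPVT1-1 and siPVT1-2 and 11.46 with NC, and differed by -1.18 between siPVT1-1 and siPVT1-2. Under the filter by mean level, ECM2 read 8.62, 7.81 and 8.46 on the treated arrays and 10.01 on the NC array, differences of -1.40, -2.20 and -1.55, and its second probe lay at the floor on the treated arrays. ASPN was dim, at the floor with the mimic and at 6.73, 6.78 and 7.08 with siPVT1-1, siPVT1-2 and NC.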

How the data were processed

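RNA from 1 sample per group was read on OneArray Plus chips in 1 colour (Cy5), per the labels' protocols. The authors deposited a linear intensity for each of 28264 probes and 4 arrays; values below 0 (74 to 131 per array) show that background had been subtracted, and the sources used here do not name the software. Arrays were brought to a common distribution by quantile normalization (limma 3.58.1, R 4.3.3), and values were raised to 64 where lower, and converted to log2. Between 8.14% and 11.74% of deposited values lay under 64. Probes were named from the platform annotation, with symbols updated by Entrez identifier to RefSeq GRCh38.p14 (25893 of 25893 matched; 2371 probes had no gene here). A gene was read by its brightest probe by mean level and compared when that mean exceeded 9.72, the median of all probes: 10668 genes, of which 2 at the floor on an array were left out. With 1 array per group no test was run; the count in each of 6 comparisons is of genes that differed 2-fold or more; the number of arrays limits the precision. The counting was tested on simulated data. Those data held changes of 3-fold or more in genes brighter than most members past 2-fold here, so smaller differences of dimmer genes were not covered. Members and lists were chosen with earlier results of these data known. Values per array are given for the 7 proteoglycans, members above the filter and members with a probe past 2-fold that exceeded the filter on an array compared, and for at most 4 genes per pathway list; COL15A1, COL6A1, COL1A2 and COL6A3, marker genes and the other genes named were picked from their lists after their values were seen. Other settings tried were median centring, cyclic loess, no normalization, a floor of 16, a filter at the 75th percentile or none, averaging the probes of a gene, and folds of 1.5 or 3. The sequences were copied from RefSeq tables.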

Additional observations from a re-analysis of the deposited data

How the results depend on the processing

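No paired analysis was possible because each group holds 1 array. Of 660 recomputed differences of 22 named genes, 648 kept their side of 2-fold, 8 no longer passed it and 4 newly passed it. In 39 of the recomputed differences the sign changed, each time between values under 2-fold, of at most 0.33 before and 0.23 after. No difference past 2-fold reversed. Many of the 660 could not change. The lower floor left values above the main floor as they were, and averaging left genes with a single probe as they were. The count of 648 is therefore no measure of stability. Median centring put the median of all genes at 0.11, 0.11 and 0.16 from NC with the mimic, siPVT1-1 and siPVT1-2. Counts over members moved as follows, and the cause was not tested unless given. The share of all genes past the threshold was not computed at these settings. The counts therefore show only how the member counts moved and cannot be set against all genes. With the filter at the 75th percentile 9 members were above it; 1 was higher and 0 lower with the mimic than NC, 0 lower with siPVT1-1 than NC, and 0 higher or lower with the mimic than either siRNA. At 3-fold, 0 were higher and 0 lower with the mimic than NC, 0 lower with siPVT1-1 than NC, 0 higher and 1 lower with the mimic than siPVT1-1, and 1 lower than siPVT1-2. At 1.5-fold, 2 were higher and 2 lower with siPVT1-1 than NC, 2 higher with siPVT1-2 than NC, 2 lower with siPVT1-1 than siPVT1-2, 2 higher and 3 lower with the mimic than siPVT1-1, and 1 higher than siPVT1-2. With the mean of a gene's probes, which adds the dim probes of COL6A2 and COL25A1, 14 members were above the filter, 1 was higher and 2 lower with the mimic than NC, 0 higher and 1 lower than siPVT1-1 (median 0.023), and 1 lower than siPVT1-2. With no filter, the mimic median against NC was 0.0304, 2 members were lower with siPVT1-1 than NC and 1 lower with siPVT1-1 than siPVT1-2. With values as deposited, 2 were lower with siPVT1-1 than NC and 1 lower with the mimic than siPVT1-2. With median centring, 1 was higher with siPVT1-2 than NC; with it and with cyclic loess, 2 were lower with the mimic than NC. The COL25A1 difference between mimic and NC ranged from -1.27 to -0.20 and that of COL6A2 from 0.74 to 1.35, the smaller sizes with averaged probes. Single arrays, dim probes and probes that disagree limit every difference given.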
